A study of Mus musculus with 8 samples.

Results

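In all, 10 integrin genes of lymphoid progenitors were followed here, 6 alpha chains (Itga4, Itga5, Itga6, Itgal, Itgav and Itgae) and 4 beta chains (Itgb1, Itgb2, Itgb3 and Itgb7). They were taken by symbol from the 38918 gene rows of the deposited table, and all 10 had a row. The cells were BMiFLT3 (15-3), a mouse pro-B cell line derived from a B-cell precursor acute lymphoblastic leukaemia, and RNA was sequenced after poly(A) selection. The control group carried a retroviral construct for blue fluorescent protein (BFP) and the other group a retroviral construct for the zinc-finger factor Klf2. BFP also stands in the column names of the Klf2 group, and what it stands for there is not given. No genotype, age or time after infection is given for either group beyond this, and each group is the same line under 1 construct. The 4 deposited samples of a group are sequencing lanes whose counts differed by about sampling noise, so each group is 1 library, with no replicate check and no p-value. The protocols name a TruSeq and a NEBNext kit and leave unsaid which made which library, so a difference of kit and the construct cannot be told apart. The study asked which genes Klf2 regulates in B-cell progenitors.

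Integrins are cell-surface receptors built from 1 alpha and 1 beta chain, and only the paired heterodimer leaves the endoplasmic reticulum in quantity. The pairing sets the ligand. The alpha4 chain with beta1 binds Vcam1 and fibronectin, and with beta7 it binds Madcam1 of gut venules. The alphaL chain with beta2 binds the Icam proteins, alpha5 with beta1 binds fibronectin, alpha6 with beta1 binds laminin, alphav with beta3 binds vitronectin, and alphaE with beta7 binds E-cadherin. In bone marrow, B-lineage progenitors use alpha4beta1 to hold on to Vcam1 on stromal cells. Klf2 is known in lymphocytes for its part in migration and homing, and in B cells it has been linked to beta7 integrin.

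The 250 bases before the annotated start are shown for Itga4, the most abundant alpha chain and the chain with the largest difference in read number, for its partners Itgb1 and Itgb7, and for Itga5, which had no exon read. They are RefSeq promoter windows of GRCm38.p6, the assembly behind mm10, and 5 of the 10 genes matched an entry (Itgav is the fifth). Capitals mark CACCC on either strand (GGGTG when read on the strand shown), the core of the box that Klf factors bind. The windows are chr2:79255176-79255425 on the plus strand for Itga4, chr8:128685404-128685653 on the plus strand for Itgb1, chr15:102231936-102232185 on the minus strand for Itgb7 and chr15:103366792-103367041 on the minus strand for Itga5.
Itga4: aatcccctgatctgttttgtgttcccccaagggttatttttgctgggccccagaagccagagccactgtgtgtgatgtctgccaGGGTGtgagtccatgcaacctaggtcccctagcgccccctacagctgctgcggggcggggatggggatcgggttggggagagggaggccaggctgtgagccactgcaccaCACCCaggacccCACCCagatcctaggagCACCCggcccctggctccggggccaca
Itgb1: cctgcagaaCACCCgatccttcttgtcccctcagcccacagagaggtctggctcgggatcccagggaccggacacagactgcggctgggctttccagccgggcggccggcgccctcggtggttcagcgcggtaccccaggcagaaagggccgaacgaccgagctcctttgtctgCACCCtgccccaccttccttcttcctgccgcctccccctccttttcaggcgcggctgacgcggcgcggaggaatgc
Itgb7: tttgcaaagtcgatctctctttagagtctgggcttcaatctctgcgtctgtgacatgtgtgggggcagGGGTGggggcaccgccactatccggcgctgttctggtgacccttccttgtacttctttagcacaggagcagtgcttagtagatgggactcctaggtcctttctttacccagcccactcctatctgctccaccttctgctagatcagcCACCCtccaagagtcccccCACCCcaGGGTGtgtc
Itga5: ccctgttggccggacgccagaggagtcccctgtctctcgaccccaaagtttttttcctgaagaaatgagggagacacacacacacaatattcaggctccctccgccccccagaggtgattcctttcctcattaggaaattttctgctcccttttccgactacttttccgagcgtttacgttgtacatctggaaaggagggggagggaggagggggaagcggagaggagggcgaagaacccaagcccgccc

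CACCC occurred 4 times in the Itga4 window and 4 times in the Itgb7 window, 2 times in Itgb1, 1 time in Itgav and 0 times in Itga5. Of 32841 promoter windows of this length, 52.02% held at least 1 match and 2.14% held 4 or more. GGGCGG on either strand (CCGCCC on the other), a GC box, occurred 1 time in Itga4, 1 time in Itgb1 and 2 times in Itga5, and in 32.7% of all windows. The Itgb1 and Itgav windows held 21 and 18 CpG dinucleotides, against 6 in Itga4, 5 in Itgb7 and 11 in Itga5, and the median of all windows was 6. The last 9 bases of the Itgb7 window lie inside the GENCODE model of the gene, which starts further upstream. These matches describe the letters of the windows only. No binding of Klf2 was measured in these files.

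The BFP library held 30133978 exon reads (lanes of 7506567 to 7588695) and the Klf2 library 30835450 (7682298 to 7741626). Klf2 itself had 314 reads against 3364, a ratio of 11.1 (9.93 to 12.6). Ratios here divide Klf2 by BFP values in CPM, where TMM factors adjust each library's total of exon reads. Each is followed by its 95% exact interval, which covers counting error only. A gene was tested at 1 CPM or more in either library, and called when it differed by 2-fold or more and the interval left out 1. Among B-lineage markers, 9 of the 11 found in the table were at 1 CPM or more in both libraries (summed 4203 CPM in BFP and 4566 CPM in Klf2), with Cd79a at 962 and 903 CPM. The rest of that list, Rag1 (1 read and 1 read) and Dntt (1 read and 9 reads), were near 0. Markers of other lineages were low. Myeloid markers summed to 8.46 CPM (BFP) and 5.22 CPM (Klf2), with Ly6g, S100a8 and S100a9 at 0 in both. Most of the myeloid sum came from Csf1r (3.76 CPM in BFP and 2.34 CPM in Klf2) and Cd14 (3.70 and 2.01 CPM).

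The levels of the 10 chains spanned from above 60 RPKM to 0 in the BFP library, and their order was nearly the same in both. RPKM is the deposited exon read count per kilobase of exon, scaled to the lane's total of gene reads, and it is the scale used here to compare chains with each other. In BFP the order was Itgb2 (62.5 RPKM), Itgb1 (46.0 RPKM), Itga4 (19.4 RPKM), Itgal (3.63 RPKM), Itgav (2.57 RPKM), Itga6 (2.04 RPKM), Itgb7 (0.370 RPKM), Itgb3 (0.181 RPKM), Itgae (0.154 RPKM) and Itga5 (0 RPKM). Lane ranges of neighbours did not overlap from Itgb2 down to Itgb7. They overlapped between Itgb7 and Itgb3 and between Itgb3 and Itgae. In Klf2 the first 6 places were the same, and below them came Itgae (0.451 RPKM), Itgb3 (0.257 RPKM) and Itgb7 (0.201 RPKM), with the ranges of the last pair overlapping. The exon length behind these levels joins all annotated transcripts of a gene, 13978 bases for Itga4 and 3052 for Itgb2, so a chain with long unused exons is understated.

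**Figure D1:**
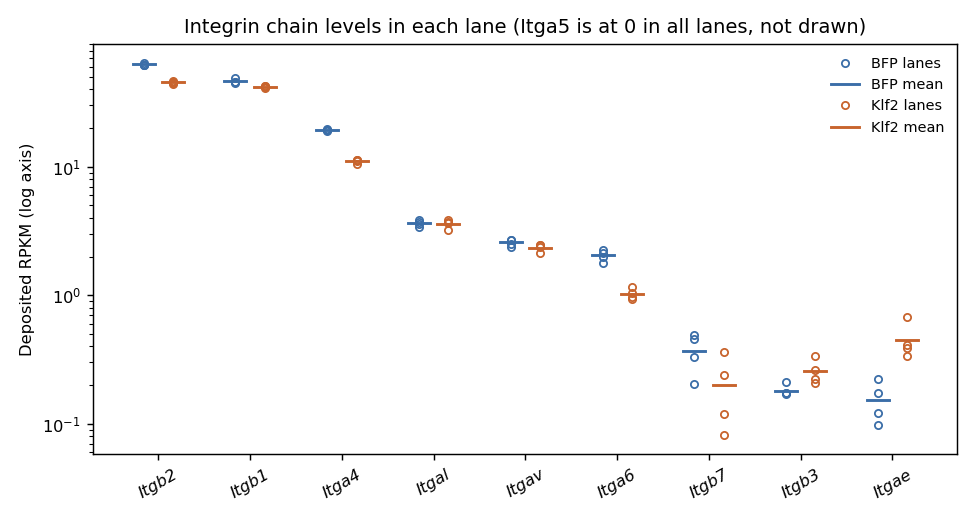
Deposited RPKM (log axis) of 9 integrin chains in each of the 4 lanes of the BFP and Klf2 libraries (open circles), with the mean of the lanes as a bar. On this scale the lanes of Itga4, Itga6, Itgb1, Itgb2 and Itgae do not overlap between the libraries, while those of Itgal, Itgav, Itgb3 and Itgb7 do. Deposited RPKM carries no TMM adjustment, and the narrow gap of Itgb1 depends on that (ratio 0.908 on RPKM, 0.965 with TMM). Lanes of 1 library are not replicates.

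Of the 10 chains, 9 reached 1 CPM in either library, and 1 of the 9 (11.1%) was called, Itgae on the higher side. Itgae reached 1 CPM through the Klf2 library alone (0.804 CPM in BFP and 2.51 CPM in Klf2). The call thus rests on a chain let in by the library where it was high. Itgb7 reached 1 CPM through the BFP library alone (1.16 CPM in BFP and 0.669 CPM in Klf2). Over all 10850 genes tested, 8.12% were called, 2.45% higher and 5.67% lower, so the chains' share lay near that of all genes. The split of all genes was 266 higher and 615 lower, and 128 and 559 on deposited RPKM. Intervals lay below 1 for Itga4, Itga6, Itgb2 and Itgb1, 4 of 9 (44.4%), against 37.3% of all genes, and above 1 for Itgae alone, against 37.1%. The median log2 difference of the 9 chains, on the log2(CPM + 1) scale, was -0.05, and that of all genes tested was -0.01. In bulk RNA, fewer cells carrying a chain and less RNA per cell cannot be told apart.

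Itga4, the alpha chain of the Vcam1 receptor (chromosome 2, 79255426 to 79333123, 37 annotated exons), was the clearest difference by read number. Its level was 19.7, 19.0, 19.4 and 19.5 RPKM in the 4 BFP lanes and 10.5, 11.3, 11.1 and 11.3 RPKM in the 4 Klf2 lanes. Every Klf2 lane lay below every BFP lane. Its reads numbered 9631 in BFP and 5617 in Klf2, a ratio of 0.607 (0.587 to 0.627), which is under the 2-fold limit. Only 65.8% of its exon reads were uniquely placed, and on those the ratio was 0.589 (0.565 to 0.613). The 3′ end of Itga4 overlaps Cerkl on the opposite strand, with 1124 of 13978 exon bases shared. Cerkl had 64 reads in BFP and 35 in Klf2, and the part of its reads in the Itga4 value was not tested.

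Itga6, the laminin-binding alpha chain (chromosome 2, 71745616 to 71858416), had the lowest ratio of the 9 chains. It was at 1.78, 2.26, 2.14 and 1.98 RPKM in the BFP lanes and at 0.938, 1.15, 1.04 and 0.960 RPKM in the Klf2 lanes, with no overlap. From 654 reads in BFP and 335 in Klf2 the ratio was 0.533 (0.466 to 0.609), so the interval spans the 2-fold limit. On reads across exon junctions, an alternative chosen after seeing the data, it was 0.480 (0.361 to 0.632), past the limit. Nearly all of its reads (99.9%) were uniquely placed. Itga5, the fibronectin receptor alpha chain (chromosome 15, 103344289 to 103366763), had 0 exon reads in all 8 lanes. The upper limit that such a count leaves, set by 3 reads per library and for counting error only, was 0.0965 CPM (BFP) and 0.1004 CPM (Klf2).

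Itgal and Itgav did not differ beyond their intervals. Itgal, the alpha chain of the Icam receptor (chromosome 7, 127296260 to 127335137), was at 3.82, 3.73, 3.40 and 3.59 RPKM in the BFP lanes and at 3.64, 3.23, 3.71 and 3.82 RPKM in the Klf2 lanes. Its lanes overlapped, and the ratio was 1.05 (0.955 to 1.16). Itgav, which pairs with several beta chains to bind vitronectin and related ligands (chromosome 2, 83724397 to 83806916), had lanes of 2.39 to 2.71 RPKM in BFP and 2.13 to 2.44 RPKM in Klf2. Its ratio was 0.971 (0.886 to 1.06). With plain library totals in place of TMM the Itgal ratio was 0.989 and the Itgav ratio 0.912, so the direction of Itgal depends on the scaling, and the Itgav interval then left out 1 (0.832 to 0.998).

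Itgae, the alphaE chain of the E-cadherin receptor (chromosome 11, 73090583 to 73147446), was the called chain, at a low level. It was at 0.222, 0.098, 0.172 and 0.122 RPKM in the BFP lanes and at 0.336, 0.385, 0.675 and 0.407 RPKM in the Klf2 lanes. All Klf2 lanes lay above all BFP lanes. The ratio was 3.12 (1.96 to 5.12), from 25 exon reads in BFP and 75 in Klf2, all of these uniquely placed. Reads over the whole gene, introns included, numbered 666 in BFP and 1298 in Klf2. Only 100 and 297 of them were uniquely placed, so most reads of this locus were not. Reads across exon junctions numbered 0 of 25 in BFP and 6 of 75 in Klf2, while over all genes 21.9% and 22.4% of exon reads crossed junctions. The intronless gene Gsg2 (Haspin in GENCODE) lies in an intron of Itgae on the opposite strand and shares 0 exon bases with it. Gsg2 had 39 reads in BFP and 24 in Klf2. Itgae is known from T cells and dendritic cells at epithelia. T-cell markers, 8 of 8 in the table, summed to 4.53 CPM (BFP) and 7.83 CPM (Klf2), of which Trac made up 3.96 and 6.96 CPM. Cd3e, Cd4, Cd8a and Cd8b1 were at 0 in both libraries. Dendritic-cell markers summed to 27.6 and 23.9 CPM, of which Flt3, a gene that B-lineage progenitors also express, made up 27.3 and 23.2 CPM, and Siglech was at 0. The part of such cells in the Itgae value was not tested.

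The 2 abundant beta chains differed less than Itga4. Itgb2, the common beta chain of leukocyte integrins (chromosome 10, 77530252 to 77565708), was at 61.4, 61.7, 64.5 and 62.3 RPKM in the BFP lanes and at 45.01, 46.7, 44.2 and 45.7 RPKM in the Klf2 lanes. The lanes were apart, and the ratio was 0.773 (0.745 to 0.802), from 6778 and 5035 reads. The myeloid marker sum, given above, was also lower in Klf2, mainly through Csf1r and Cd14. Lyz2 of the same list went the other way, at 0.354 CPM in BFP and 0.669 CPM in Klf2. The part of myeloid cells in the Itgb2 value was not tested. Itgb1, the partner of the alpha chains that bind matrix and Vcam1 (chromosome 8, 128685654 to 128733200), was at 44.6, 45.8, 45.2 and 48.6 RPKM in the BFP lanes and at 42.3, 42.2, 41.2 and 41.4 RPKM in the Klf2 lanes. Its ratio was 0.965 (0.932 to 0.9994), from 6681 and 6198 reads, and 0.890 (0.828 to 0.957) on junction reads. The Itgb1 interval reached past 1 on uniquely placed reads (0.935 to 1.002) and without lane 3 (0.926 to 1.003) or lane 4 (0.947 to 1.03).

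Itgb3 and Itgb7 rested on few reads. Itgb3, a beta chain known from platelets and macrophages (chromosome 11, 104608000 to 104670476), had 38 reads in BFP and 55 in Klf2, a ratio of 1.51 (0.978 to 2.34). Its lanes ran from 0.170 to 0.210 RPKM in BFP and from 0.206 to 0.335 RPKM in Klf2, and they overlapped. The 7 megakaryocyte and platelet markers summed to 3.47 CPM (BFP) and 2.58 CPM (Klf2). Most of this came from Gp1ba (2.06 and 1.94 CPM) and Gp6 (1.38 and 0.502 CPM), while Pf4, Ppbp and Gp1bb were at 0 in both. The part of such cells in the Itgb3 value was not tested. Itgb7, the beta chain of the Madcam1 and E-cadherin receptors (chromosome 15, 102215995 to 102231935), had 36 reads in BFP and 20 in Klf2, a ratio of 0.578 (0.317 to 1.03). Its BFP lanes were at 0.494, 0.328, 0.453 and 0.204 RPKM and its Klf2 lanes at 0.120, 0.241, 0.081 and 0.360 RPKM, so they overlapped. Without lane 4 of both libraries the Itgb7 ratio was 0.369 (0.167 to 0.754) and passed the rule on the lower side. With library totals its interval was 0.298 to 0.963. At this depth a change in Itgb7 or Itgb3 was not settled.

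**Figure D2:**
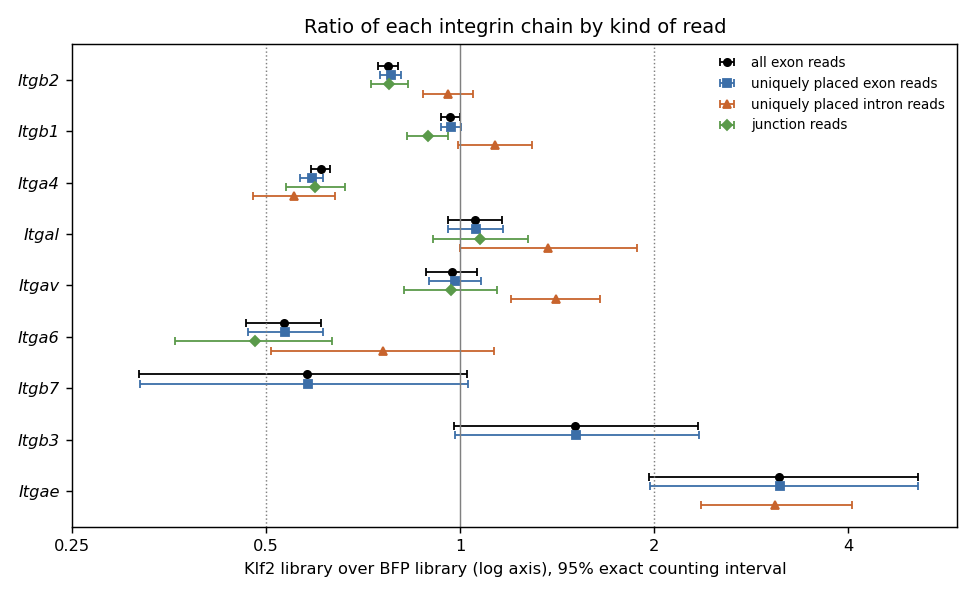
Ratio of the Klf2 over the BFP library (log axis) for 9 integrin chains on 4 kinds of read, with 95% exact counting intervals. Values on under 10 junction reads or under 20 intron reads are not drawn, and dotted lines mark 2-fold. Itga4 lies below 1 on every kind of read, from 0.553 on intron reads to 0.607 on all exon reads, and Itgae above 1 on exon and intron reads.

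Reads in introns, a readout apart from the exon counts, were compared for the 7 chains with at least 20 uniquely placed intron reads in either library. Of these, 1 was called higher, Itgae, against 3.47% of the 10119 genes with such reads, and 0 were called lower, against 6.94%. Intervals lay above 1 for Itgae and Itgav (27.6% of all genes) and below 1 for Itga4 (27.5% of all genes). Itga4 had 529 intron reads in BFP and 281 in Klf2, a ratio of 0.553 (0.477 to 0.640), overlapping its exon interval. Itgae had 75 and 222, a ratio of 3.08 (2.36 to 4.06), and 75.0% and 74.7% of its uniquely placed gene reads lay outside exons, against 13.6% over all genes in either library. Itgav had 276 and 373 intron reads, a ratio of 1.41 (1.20 to 1.65), above its exon interval. Gm13684, an annotated transcript on the opposite strand, covers 22084 bases of Itgav, and whether strand was used in counting is not given in the sources used here. For Itgb2 the intron ratio was 0.957 (0.874 to 1.05), above its exon interval of 0.745 to 0.802.

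Pairing was examined as the alpha over beta level, reads per exon length, in each library. These are RNA levels, and neither protein nor paired receptors at the surface were measured in these files. The shift of that ratio between the libraries does not depend on how the libraries are scaled. Of 8 known pairs among the chains, 7 could be compared and 3 shifted by at least 1.5-fold with an interval excluding 1. The share of other gene pairs that shift this far was not computed, so the count has no baseline. At the same 1.5-fold limit, 1112 single genes of the 10850 tested were higher in Klf2 and 1505 lower. The alpha4 to beta1 level ratio was 0.421 (0.408 to 0.434) in BFP and 0.265 (0.255 to 0.274) in Klf2, a shift of 0.629 (0.599 to 0.660). The alpha6 to beta1 level ratio was 0.0443 in BFP and 0.0244 in Klf2, a shift of 0.552 (0.480 to 0.634). The alphav to beta1 level ratio was 0.0558 and 0.0561, a shift of 1.01 (0.912 to 1.11). Thus 2 of the 3 measured beta1 partners were lower relative to Itgb1 in the Klf2 library and Itgav was not. The level of Itga4, Itga5, Itga6 and Itgav summed to 24.0 RPKM in BFP and 14.4 RPKM in Klf2, which is 0.521 and 0.345 of the Itgb1 level.

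The alphaL to beta2 level ratio was 0.0582 (0.0540 to 0.0625) in BFP and 0.0792 (0.0736 to 0.0853) in Klf2, a shift of 1.36 (1.23 to 1.51). Itgb2 thus stood far above Itgal in both libraries. For the beta7 pairs, Itga4 exceeded Itgb7 52.5-fold (37.9 to 75.0) in BFP and 55.1-fold (35.7 to 90.3) in Klf2, a shift of 1.05 (0.591 to 1.92), which was 1.64 (0.799 to 3.61) without lane 4. The alphaE to beta7 level ratio was 0.416 (0.239 to 0.712) in BFP and 2.25 (1.36 to 3.88) in Klf2, a shift of 5.40 (2.51 to 11.7). Without lane 4 it was 8.17 (3.23 to 21.2), and without lane 3 it was 3.63 (1.49 to 8.87). By these ratios the alphaE and beta7 pair changed which chain was the scarcer, at mean levels under 0.5 RPKM for both. Lane ranges of the pair overlapped in both libraries. They were 0.098 to 0.222 RPKM (Itgae) and 0.204 to 0.494 RPKM (Itgb7) in BFP, and 0.336 to 0.675 and 0.081 to 0.360 RPKM in Klf2. The order of the chains also depends on their exon lengths, and few Itgae exon reads crossed junctions. For alphav and beta3 the level ratio was 14.2 (10.3 to 20.2) and 9.15 (6.96 to 12.2), a shift of 0.644 (0.411 to 1.003), whose interval reached 1. Without lane 2 the shift of alphav to beta3 was 0.593 (0.353 to 0.981), and the count of shifted pairs was then 4. The pairs share chains, so they are not independent of each other.

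**Figure D3:**
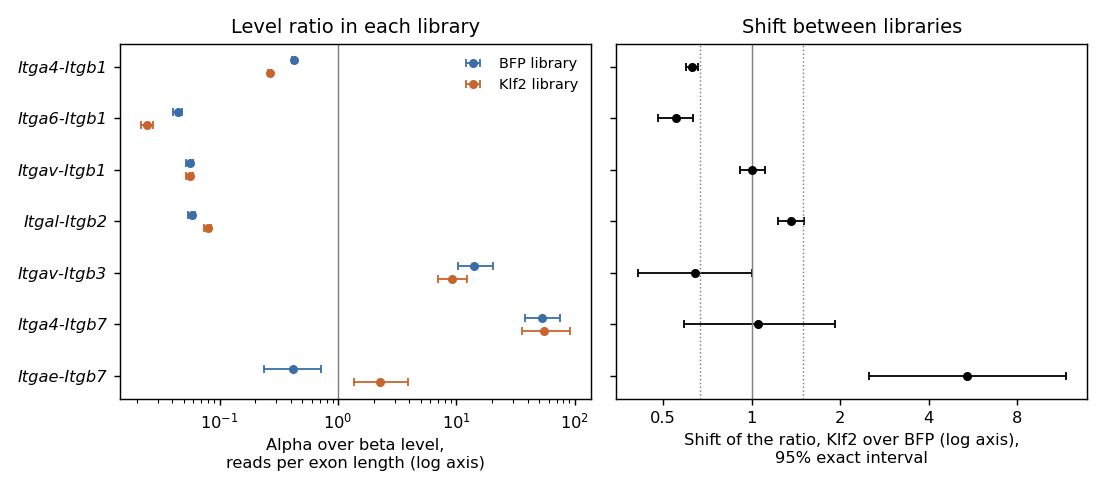
Left, alpha over beta level (reads per exon length, log axis) of 7 integrin pairs in the BFP and Klf2 libraries; right, the shift of that ratio (log axis), both with 95% exact counting intervals and with dotted lines at 1.5-fold. Itga4-Itgb1 and Itga6-Itgb1 shifted to the left at 0.629 and 0.552, Itgae-Itgb7 to the right at 5.40, and Itgav-Itgb1 and Itga4-Itgb7 lay near 1.

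Set against all integrin chains, the 10 genes held most of the RNA. The 18 alpha chains summed to 31.5 RPKM in BFP and 20.7 RPKM in Klf2, and the 8 beta chains to 110 and 89.2 RPKM. Itga4 made up 61.6% of the alpha sum in BFP and 53.5% in Klf2, and Itgal 11.6% and 17.4%. Itgb2 and Itgb1 made up 56.5% and 41.7% of the beta sum in BFP, and 50.9% and 46.9% in Klf2. Of the 16 other chains, 4 were tested and 1 was called, Itgad, an alpha partner of beta2, at 14.2 CPM in BFP and 7.06 CPM in Klf2, against 8.12% of all genes called and 5.67% called lower. The Itgad ratio of 0.499 (0.421 to 0.589) lay at the limit. Only 16 of its 440 exon reads in BFP crossed a junction, and its gene reads numbered 2105. Itgb4, which pairs with alpha6, was at 11.4 and 12.4 CPM, and the platelet chain Itga2b at 2.22 and 1.54 CPM. The collagen receptor chain Itga10 was at 3.12 and 3.45 CPM. Itgam, the alpha chain of myeloid cells, had 10 reads in BFP and 5 in Klf2.

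**Figure D4:**
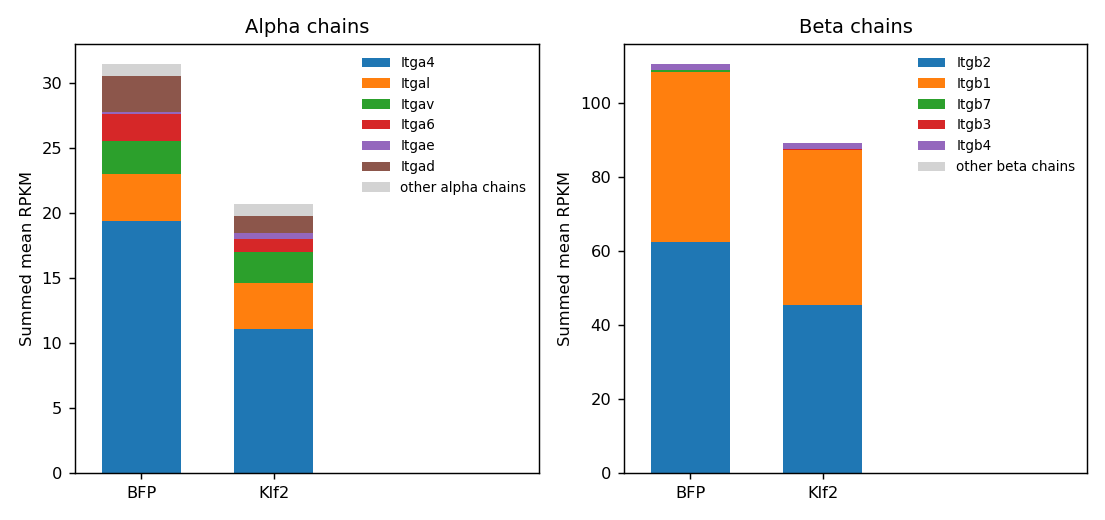
Summed mean RPKM of the 18 alpha chains (left) and 8 beta chains (right) in the BFP and Klf2 libraries, stacked by gene. The alpha stack is lower in Klf2 (20.7 against 31.5 RPKM), mainly through Itga4, and the beta stack through Itgb2.

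Of the other genes of the integrin pathway, listed with earlier results of these data known, few passed the rule. Among 20 ligands 3 were tested and 0 called: the laminin chain Lamc1 had a ratio of 1.16 (1.12 to 1.20), Icam1 of 0.949 (0.864 to 1.04) and Icam2 of 1.05 (0.824 to 1.33). Vcam1 and Cdh1, which encodes E-cadherin, had 0 exon reads in both libraries, Madcam1 had 0 and 1, and Fn1 had 2 and 0. The ligands that alpha4 and alphaE chains bind were therefore at most a trace in these cells. Among 18 genes of inside-out activation, the step by which Rap1, talin and kindlin switch integrins on from inside, 14 were tested and 0 called, and 7 intervals (50%) lay above 1 and 4 (28.6%) below. The shares over all genes tested were 37.1% above 1, 37.3% below 1 and 8.12% called. Rasgrp2, an exchange factor for Rap1, came nearest, at 158 CPM in BFP and 301 CPM in Klf2, a ratio of 1.91 (1.84 to 1.97). Apbb1ip, which brings talin to Rap1, was at 81.6 and 111 CPM, and the exchange factor Rapgef3 at 32.4 and 44.2 CPM. Rap1a was at 39.9 and 52.1 CPM, while the more abundant Rap1b was lower in Klf2, at 151 and 120 CPM, a ratio of 0.793 (0.759 to 0.828). Median log2 difference was 0.08 for this list.

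Of 11 negative regulators of integrin activation, 9 were tested and 0 called, with 4 intervals above 1 (44.4%, all genes 37.1%) and 2 below (22.2%, all genes 37.3%) and a median log2 difference of 0.01. Rasa3, a GTPase-activating protein for Ras and Rap, was at 44.6 CPM in BFP and 74.6 CPM in Klf2. Sipa1, a Rap-specific GTPase-activating protein, was at 141 and 185 CPM. Flna, whose product competes with talin for the beta tail, was at 170 and 239 CPM, and the adaptor Dok2 at 1.77 and 3.21 CPM. Of 25 genes of outside-in signalling and actin linkage, 19 were tested and 0 called, with 8 intervals above 1 (42.1%, all genes 37.1%), 7 below (36.8%, all genes 37.3%) and a median of 0.01. Focal adhesion kinase, Ptk2, had a ratio of 0.603 (0.554 to 0.654), while its relative Ptk2b had one of 1.37 (1.29 to 1.47). The adaptor Tgfb1i1 was at 3.83 and 2.21 CPM and the actin crosslinker Actn4 at 406 and 551 CPM.

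Among 10 tetraspanins and other membrane partners of integrins, 6 were tested and 1 was called, Cd53, on the lower side. Cd53, a tetraspanin of leukocytes, was at 417 CPM in BFP and 163 CPM in Klf2, a ratio of 0.391 (0.378 to 0.404). Intervals lay below 1 for 5 of the 6 and above 1 for 0, against 37.3% and 37.1% of all genes, of which 8.12% were called. The median of the 6 was -0.27. Cd81, a widely expressed tetraspanin, was at 160 and 127 CPM, Cd82 at 32.4 and 26.6 CPM and Cd151, which binds laminin-binding integrins, at 24.4 and 20.2 CPM.

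**Figure D5:**
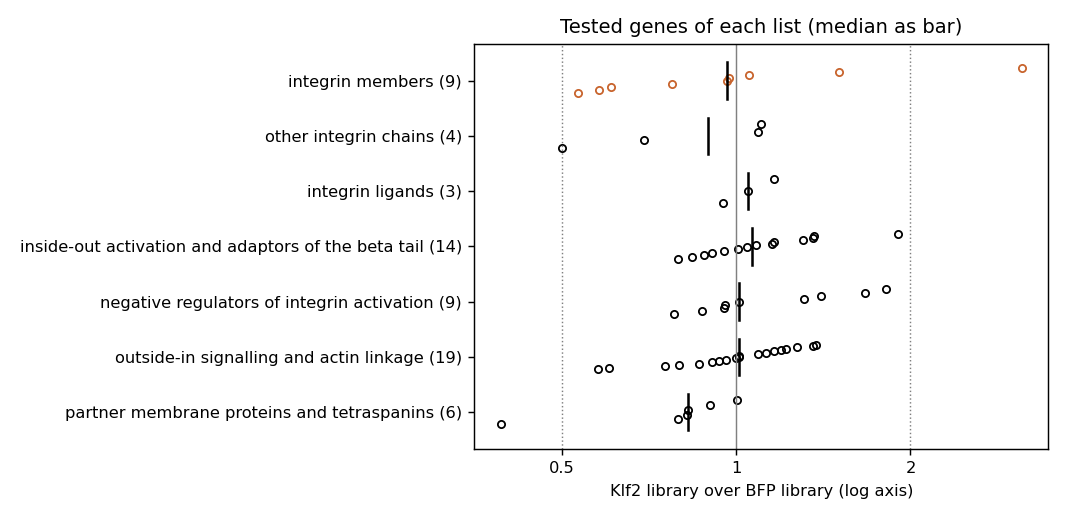
Ratio of the Klf2 over the BFP library (log axis) for each tested gene of the 10 integrin chains (9 tested) and of 6 other lists, with the list median as a bar and dotted lines at 2-fold. Itgae lies above 2-fold, Cd53 and Itgad below, and the rest between the lines.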

How the data were processed

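RNA was measured in 2 groups of 4 lanes. The submitters' processing notes name CASAVA 1.8.2 and mm10; the aligner, the counting program, the annotation and any use of strand in counting: not given in the sources used here. Per the file headers, the authors deposited counts of exon, gene and junction reads per lane, and RPKM, which were recomputed to within 0.0258. The authors' deposited fold change of mean RPKM, a signed number listed here under the unit score, was not used.

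Lanes of a group differed by about sampling noise (chi-square per degree of freedom 1.29 in BFP and 1.27 in Klf2, limit 1.5) and were summed. Counts were scaled with TMM (edgeR 4.0.16, R 4.3.3; factors 1.03 for BFP and 0.969 for Klf2) and given as CPM with Clopper-Pearson intervals of the ratio. Pair shifts have the exact interval of the odds ratio (scipy 1.17.1). No genomewide test was possible with 1 library per group. The ratio code was tested on simulated data. Intron reads are uniquely placed gene reads minus exon reads. Alternatives were other scaling, including DESeq2 1.42.0 size factors, other reads, floors and limits, and each lane left out.

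The members and lists were chosen with earlier results of these data known. Named genes are all 10 members and up to 4 genes per list with the largest log2(CPM + 1) difference, called genes first. Itgam, Rap1b, the untested ligands, overlapping genes and markers are named beyond that rule. Cd47, Ebf1, Adgre1 and Hbb-b1 are not analysed here. No per-sample column without a sample was used. Some marker genes are not reported here.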

Additional observations from a re-analysis of the deposited data

Results flagged for a closer look

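The level of Itgb3 over the 4 BFP lanes was set apart by 1 lane. Lane 3 was at 0.210 RPKM and the others at 0.170 to 0.172 RPKM, so its gap to the nearest lane was 0.95 of the whole range, above the 95% critical value of Dixon's test for 4 values. The value rests on 38 reads in all. Of 18 sets of 4 lanes examined 1 was marked. Chance marks about 1 in 20 where values are continuous. Counts this small leave nearly tied lanes, so that rate need not hold here and the mark decides nothing.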

How the results depend on the processing

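Itgae was the called chain, with 1 higher and 0 lower, on uniquely placed reads, with library totals, with median-of-ratios size factors and with no floor. With a floor of 10 CPM, where Itgae is not tested, 0 chains were higher, 0 intervals lay above 1, the median was -0.21 over 6 chains, and 121 and 277 of all genes were higher and lower. On deposited RPKM with a floor of 1 RPKM, 0 chains were higher, the median was -0.29, and the split of all genes was 128 higher and 559 lower, against 266 and 615. With no floor 432 of all genes were higher. With a 1.5-fold limit 2 chains, Itga4 and Itga6, were lower, and 1112 and 1505 of all genes passed. On junction reads, chosen after seeing the data, 0 chains were higher, 1 lower and 0 intervals above 1, over 6 chains with enough reads. Leaving out each lane in turn gave 0 to 1 lower chains, the 1 being Itgb7 without lane 4. It gave 3 to 4 shifted pairs, the fourth being Itgav to Itgb3 without lane 2. With a 2-fold limit 1 pair was shifted, Itgae to Itgb7. Library totals gave 6 intervals below 1 in place of 4, with Itgav and Itgb7 added. Of the values of single chains and pairs under an alternative that could move them, 106 stayed inside the main interval and 7 did not, those of Itga4, Itgb1 and Itgb2. No paired analysis was possible because lanes of 1 library are not replicates and the results come from no test. Depth limits Itgae, Itgb3 and Itgb7, each under 100 reads per library.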
